A study of Mus musculus with 12 samples.

Results

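Expression of 7 genes whose products build caveolae and their diaphragms, Cav1, Cav2, Cavin1, Cavin2, Cavin3, Ehd2 and Plvap, was examined in lung lymphatic endothelial cells (LECs) after exposure of mice to cigarette smoke (CS) or room air (RA). The genes were taken by symbol from the 52636 genes counted in 12 RNA-seq libraries, and the rule used none of their values. They and the gene lists below were, however, chosen with earlier results of these data known. LECs were sorted from dissociated lungs of Prox1-EGFP reporter mice, in which the regulatory sequence of the lymphatic transcription factor gene Prox1 drives a green fluorescent protein, as live cells that were positive for GFP and CD31 and negative for EpCAM and blood lineage markers. All groups, controls included, carried this reporter. Mice entered exposure at 6 weeks of age and received whole-body CS for 8 weeks (acute CS, 2 libraries) or for at least 24 weeks (chronic CS, 5 libraries, with an age label of Aged). Age-matched mice kept in room air gave 2 acute RA and 3 chronic RA libraries. Each acute library held cells pooled from 2 to 5 mice, whereas chronic libraries were not pooled. Libraries are named by group, by sex (F or M) and, where there were several, by number.

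Caveolae are flask-shaped pits of the plasma membrane that are abundant in endothelial cells. Caveolins insert into the membrane, cavins coat it from the cytosol, and the ATPase Ehd2 sits at the neck of the pit. Plvap forms the thin diaphragm that spans the neck of endothelial caveolae and transendothelial channels, and the protein is known in the LECs that line lymph node sinuses. Caveolae take part in transcytosis, lipid uptake, mechanical sensing and the control of endothelial nitric oxide synthase.

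All 7 genes were found in the files, and all 7 were among the 21440 genes that passed the filter on low counts. Each library gave between 18821438 counts (chronic CS F) and 56998590 counts (acute RA F), and the members had between 4792 and 161381 counts in a library. Values are CPM, counts scaled to a common library size with TMM factors, which correct for a few abundant genes taking a large share of a library. Markers of LECs were detected in every library, but the summed CPM of 8 of them was 6485 to 9822 in acute CS against 15254 to 17066 in acute RA. Summed markers of blood endothelium (12 genes) were at 5150 to 7122 CPM in acute CS and at 800 to 964 CPM in acute RA, those of leukocytes (8 genes) at 1627 to 2275 and 126 to 133 CPM, and those of mesenchyme (11 genes) at 692 to 1046 and 149 to 218 CPM. Blood endothelium and alveolar type 1 epithelium are known for abundant caveolae, so these values stand beside each acute result, and their part in it was not tested.

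Cav1 and Cav2 are neighbours on chromosome 6 of the mouse genome (GRCm38) and are transcribed in the same direction. Cav2 (ENSMUSG00000000058) lies from 17281185 to 17289115 on the plus strand and Cav1 (ENSMUSG00000007655) from 17306335 to 17341452, with 17219 bases between the end of the former and the start of the latter. Cavin1 (ENSMUSG00000004044) lies on chromosome 11 from 100956733 to 100970887, Cavin2 (ENSMUSG00000045954) on chromosome 1 from 51289126 to 51302960, and Plvap (ENSMUSG00000034845) on chromosome 8 from 71497765 to 71511752. Cavin3 (ENSMUSG00000037060) and Ehd2 (ENSMUSG00000074364) are on chromosome 7, from 105480083 to 105482300 and from 15946958 to 15967567. The 7 genes are protein coding, and Cavin3 shares 374 exonic bases with Gm45667, an uncertain transcript model on the other strand, whose reads cannot be told apart from those of Cavin3 because the strand setting of the counting is not stated.

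Promoter windows of 300 bases (250 before and 50 after the annotated start) were available from RefSeq (GRCm38.p6) for 5 of the 7 genes: Cav1, Cav2, Cavin1, Cavin2 and Ehd2. The windows of Cav1 (chr6:17306085-17306384, plus strand, the first of its annotated starts) and Cav2 (chr6:17280935-17281234, plus strand) are shown because these neighbours had the highest acute log2 differences among the members, although that of Cav2 was not called by edgeR. That of Cavin2 (chr1:51288876-51289175, plus strand) is shown because its CPM hardly differed with acute CS. Capitals mark matches, on either strand, to a TATA box (TATAAA), a GC box (GGGCGG), an ETS core (CCGGAA), an AP-1 site (TGANTCA) or an antioxidant response element (TGACNNNGC), and adjacent GC boxes run together where they touch.
Cav1: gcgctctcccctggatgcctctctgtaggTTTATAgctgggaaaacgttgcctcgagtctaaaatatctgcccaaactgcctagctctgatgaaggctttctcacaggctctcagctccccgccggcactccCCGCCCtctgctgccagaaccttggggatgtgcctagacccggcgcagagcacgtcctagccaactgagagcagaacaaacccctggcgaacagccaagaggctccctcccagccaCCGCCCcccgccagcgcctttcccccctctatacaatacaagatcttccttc
Cav2: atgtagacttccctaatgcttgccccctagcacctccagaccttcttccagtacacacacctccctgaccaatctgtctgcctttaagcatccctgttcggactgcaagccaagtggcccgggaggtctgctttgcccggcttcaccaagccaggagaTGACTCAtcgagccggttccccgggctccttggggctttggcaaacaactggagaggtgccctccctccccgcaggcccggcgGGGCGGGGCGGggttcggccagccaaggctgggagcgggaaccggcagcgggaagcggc
Cavin2: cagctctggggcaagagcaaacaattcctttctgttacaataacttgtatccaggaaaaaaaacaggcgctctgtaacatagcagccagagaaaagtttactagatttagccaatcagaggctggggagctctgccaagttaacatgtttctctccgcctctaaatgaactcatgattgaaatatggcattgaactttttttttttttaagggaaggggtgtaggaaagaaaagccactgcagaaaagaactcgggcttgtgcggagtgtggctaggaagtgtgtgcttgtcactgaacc
The Cav1 window shown held 1 TATA box match and 2 GC box matches, and the Cav2 window held 2 GC boxes and 1 AP-1 match. The Cavin2 window held none of the 5 motifs, with a GC content of 43.3% against 59.3% for Cav1 and 64.3% for Cav2. Each of the 2 Cavin1 windows, which overlap almost wholly, held 1 GC box, the Ehd2 window held 2, and the second Cav1 window held none of the 5 motifs. Over 32851 windows of all genes, 35.7% held a GC box, 13.6% a TATA box, 14.9% an ETS core, 7.81% an AP-1 site and 12.4% an antioxidant response element. A GC box was in 5 of the 7 windows of members. A match is a match of letters and not a measured binding site.

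The members were among the most abundant transcripts of room air LECs. Levels of different genes were compared per kilobase of exon (FPKM) over the 5 RA libraries. Plvap had the highest level, 1350 ± 171 FPKM (SD, n = 5), above 99.9% of the genes tested, followed by Cavin2 at 666 ± 96.2 FPKM. Cavin3 (314 ± 55.0 FPKM) and Cav1 (303 ± 18.3 FPKM) did not differ beyond their spread. Cav2 was at 158 ± 5.03 FPKM, and Ehd2 (104 ± 42.9 FPKM) and Cavin1 (89.5 ± 12.2 FPKM) came last with overlapping ranges. Even Cavin1 was above 97.6% of the genes tested. The lowest RA library for Plvap (1070 FPKM) was above the highest for Cavin2 (811 FPKM), and the lowest for Cavin2 (588 FPKM) was above the highest for Cavin3 (401 FPKM), whereas the highest Ehd2 value (166 FPKM) reached into the range of Cav2 (154 to 166 FPKM).

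**Figure D1:**
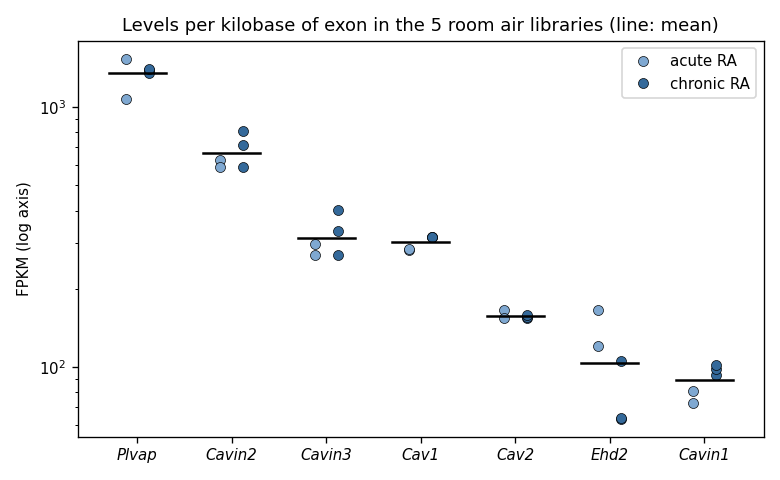
FPKM of the 7 genes (log axis) in the 2 acute RA and 3 chronic RA libraries, 1 point per library, with the mean over the 5 libraries as a line. Plvap and Cavin2 stood above the other members in every library, and Ehd2 had the widest spread relative to its mean, from 63.4 to 166 FPKM.

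Acute CS against acute RA asks how LECs differ after 8 weeks of smoke. Cav1, the caveolin that endothelial caveolae require, rose from a mean of 975 ± 9.60 CPM (SD, n = 2) to 2063 ± 159 CPM (SD, n = 2). It was at 968 and 982 CPM in the F and M libraries of acute RA, against 2176 and 1951 CPM in those of acute CS. Both CS libraries were above both RA libraries and above all 8 chronic libraries, whose highest Cav1 value was 1398 CPM. The log2 fold change was 1.08 (SE 0.23, adjusted p = 0.0271, edgeR quasi-likelihood test with Benjamini-Hochberg adjustment over all genes). Cav1 was the 1 member of 7 past the adjusted limit of 0.05, in a comparison in which 2.75% of all genes tested were called higher and 0.723% lower.

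The Cav1 call was lost in 5 of 11 alternatives, 3 of which left out an acute library. Its fold change stayed between 1.0 and 1.16 on the log2 scale when each library was left out, but its adjusted p (edgeR) was 0.168 without acute CS F, 0.194 without acute RA F, 0.229 without acute RA M and 0.0479 without acute CS M. It was 0.0534 with a replicate block and 0.0782 when only the acute groups were fitted (edgeR).

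Cav2 encodes the partner caveolin that needs Cav1 to leave the Golgi. It was at 554 and 514 CPM in acute RA F and M and at 915 and 755 CPM in acute CS F and M, so that the groups did not overlap. Its log2 difference was 0.64 (SE 0.22, adjusted p = 0.173 by edgeR), short of the adjusted limit, while DESeq2 gave an adjusted p of 0.0496.

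Cavin1, the coat protein without which caveolae do not form, was at 262 and 289 CPM in acute RA F and M and at 391 CPM in both acute CS libraries. The groups did not overlap, with a log2 difference of 0.51 (SE 0.19, adjusted p = 0.209 by edgeR). Cavin2, which helps to bend the membrane, was at 1915 and 1796 CPM in acute RA F and M and at 1869 and 1956 CPM in acute CS F and M. These values overlapped, and the log2 difference was 0.04 (SE 0.19, adjusted p = 0.968 by edgeR).

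Cavin3, a cavin first described as a binding protein of protein kinase C delta, went the other way. It was at 449 and 495 CPM in acute RA F and M and at 162 and 304 CPM in acute CS F and M, below both controls. The log2 difference was -1.02 (SE 0.30, adjusted p = 0.108 by edgeR). Without acute CS M it was -1.54 with an adjusted p of 0.0258 (edgeR), without acute CS F it was -0.63 with an adjusted p of 0.550 (edgeR), and DESeq2 with all libraries gave an adjusted p of 0.0147.

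Ehd2, which holds caveolae at the plasma membrane, was at 618 and 848 CPM in acute RA F and M and at 471 and 599 CPM in acute CS F and M. Its groups did not overlap, yet the nearest libraries were 599 and 618 CPM, and the log2 difference of -0.45 had an SE of 0.41 (adjusted p = 0.713 by edgeR). With 1 library left out, the Ehd2 difference ranged from -0.66 to -0.24. Plvap was at 2127 and 3053 CPM in acute RA F and M and at 2719 and 3006 CPM in acute CS F and M. Its CS values lay within the range of the controls, with a log2 difference of 0.14 (SE 0.21, adjusted p = 0.860 by edgeR).

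**Figure D2:**
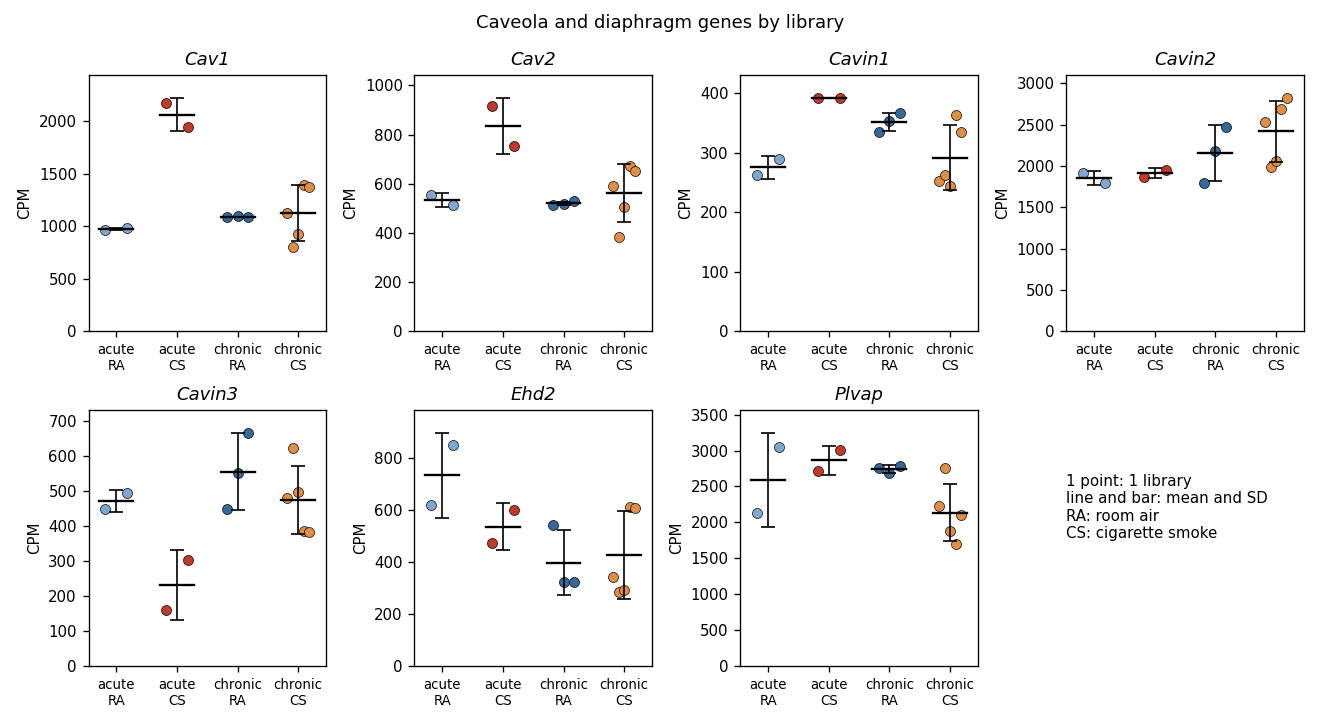
CPM of each gene by group, 1 point per library, with the group mean as a line and the SD as a bar. Acute CS stands above acute RA for Cav1, Cav2 and Cavin1 and below it for Cavin3 and Ehd2, whereas the chronic groups overlap for all 7 genes.

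Over the 7 members, 5 were higher and 2 lower in acute CS, with a median log2 difference of 0.14 against 0.04 over all genes tested. At an unadjusted p under 0.05, 3 members were higher (Cav1, Cav2 and Cavin1) and 1 was lower (Cavin3), beside 10.7% of all genes higher and 5.0% lower. Groups did not overlap for 3 members higher and 2 lower, beside 27.4% and 22.5% of all genes, so that a lack of overlap alone was common in this comparison of 2 against 2 libraries. In bulk RNA, fewer cells of a type and less RNA per cell cannot be told apart.

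Within a library, the proportions between members differed between acute CS and acute RA. Ratios within a library do not depend on its scaling and are given here from FPKM, as a description. Cav2 to Cav1 was 0.591 and 0.541 in acute RA F and M, 0.434 and 0.400 in acute CS F and M, and 0.489 to 0.564 in the 8 chronic libraries. Cavin1 to Cav1 was 0.260 to 0.283 in acute RA and 0.173 to 0.193 in acute CS, and Plvap to Cav1 was 3.81 to 5.39 and 2.17 to 2.67. Cavin3 to Cavin1 was 3.69 and 3.70 in acute RA but 0.894 and 1.68 in the F and M libraries of acute CS. Each of these ratios was lower in both acute CS libraries than in both acute RA libraries. Those to Cav1 contain the higher Cav1 values given above, and Cavin3 to Cavin1 the lower Cavin3 values, so they are not separate results. In the chronic libraries the ranges of Cav2 to Cav1, Cavin3 to Cavin1 and Plvap to Cav1 overlapped between CS and RA, and so did those of Cavin1 to Cav1 (0.214 to 0.313 in CS and 0.296 to 0.323 in RA). Cavin2 to Cavin1, at 8.69 to 11.8 in chronic CS and 6.31 to 7.95 in chronic RA, did not overlap between the chronic groups, and in the acute groups it did not overlap in the other direction (5.61 to 5.87 in CS and 7.29 to 8.58 in RA). Ehd2 to Cav1 was 0.146 to 0.207 in acute CS and 0.429 to 0.581 in acute RA, and in the chronic groups the CS range of 0.204 to 0.297 lay within that of RA. These ratios were not tested.

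**Figure D3:**
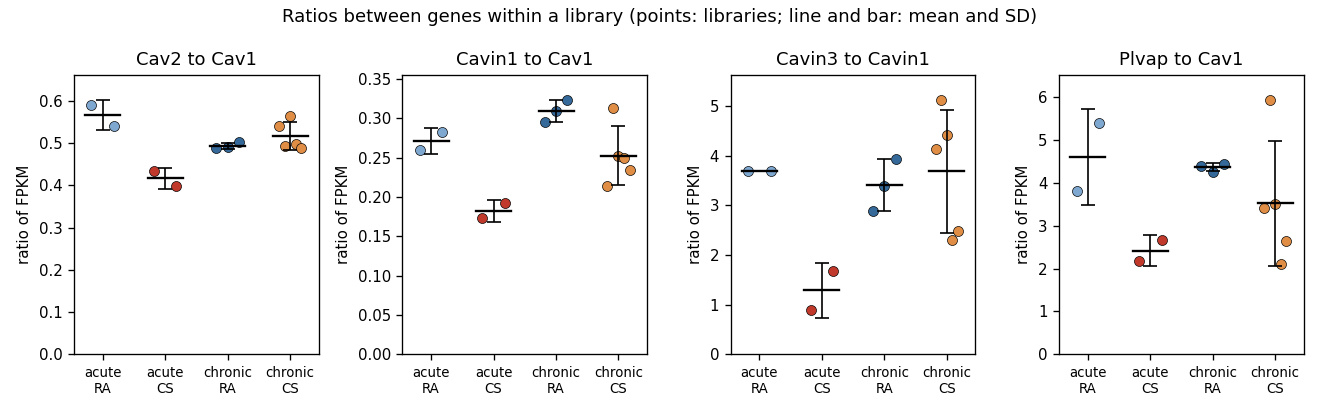
Ratios of FPKM between pairs of members within each library, by group, with the group mean as a line and the SD as a bar. The 2 acute CS libraries lie below the 2 acute RA libraries in each of the 4 panels.

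The acute libraries also differed among themselves in what else they held. Summed markers of alveolar type 1 epithelium (6 genes) were at 820 CPM in acute CS F but at 85.9 CPM in acute CS M, against 99.6 to 106 CPM in acute RA. Cav1 was at 2176 and 1951 CPM in the same 2 CS libraries. Type 2 epithelial markers (7 genes) were at 6244 and 314 CPM in acute CS F and M, against 835 to 1200 CPM in acute RA, and macrophage markers (7 genes) at 2059 and 2177 CPM, against 685 to 771 CPM. The macrophage list went both ways: Mrc1, most of its sum in acute RA, was called lower (a mean of 647 CPM in acute RA and 338 CPM in acute CS), while the other 6 were higher, 2 of them past the adjusted limit. Of the blood endothelial markers, 12 of 12 were higher in acute CS, 9 of them past the adjusted limit, and all 8 leukocyte markers and 6 of 11 mesenchymal markers were past it too. Of the 8 lymphatic markers, 7 were lower in acute CS, 3 of them past the adjusted limit, and Lyve1 was higher (a mean of 489 CPM in acute RA and 777 CPM in acute CS, adjusted p = 0.307 by edgeR). No defining marker of blood endothelium, epithelium, mesenchyme, leukocytes or LECs was at 0 in any library, while Marco and Siglecf of the macrophage list were at 0 in some, and the part of these cells in the members' values was not tested.

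**Figure D4:**
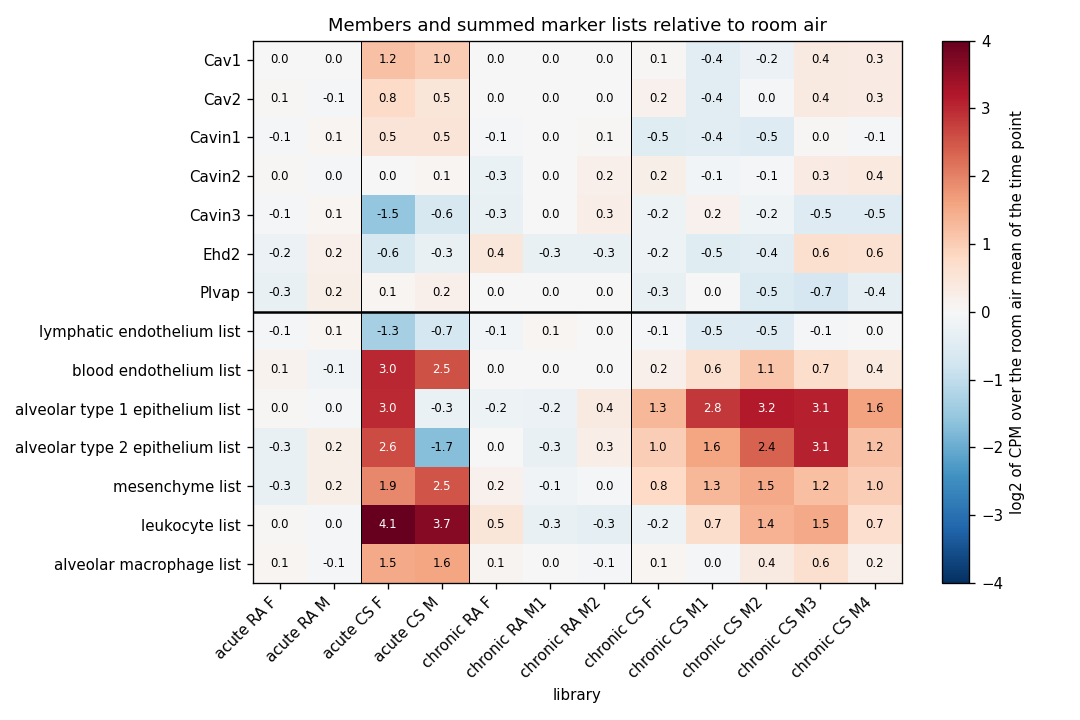
Log2 of the CPM of each member, and of the summed CPM of each marker list, over the mean of the room air libraries of the same time point, for the 12 libraries. In both acute CS libraries the blood endothelium, mesenchyme, leukocyte and macrophage lists are higher and the lymphatic list is lower, while the alveolar type 1 and type 2 lists are higher in the F library and lower in the M library.

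Chronic CS against chronic RA asks the same after 24 weeks or more, with 5 and 3 unpooled libraries. None of the 7 members passed the adjusted limit, and no gene of the 21440 did in edgeR (0% higher and 0% lower), while 5.57% were higher and 5.35% lower at an unadjusted p under 0.05. DESeq2 called 524 genes in this comparison and none of the members. Groups did not overlap for 3.92% of genes higher and 5.49% lower, and for none of the members.

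Cav1 was at 1088, 1095 and 1087 CPM in chronic RA F, M1 and M2, a spread of 4.29 CPM (SD, n = 3). Chronic CS libraries F, M1, M2, M3 and M4 had 1131, 805, 929, 1398 and 1377 CPM, on both sides of the controls. The log2 difference was 0.05 (SE 0.17, adjusted p = 0.937 by edgeR). Cav2 followed the same order of libraries at both ends, from 384 CPM in chronic CS M1 to 675 CPM in M3, against 515 to 528 CPM in chronic RA, with a log2 difference of 0.11 (SE 0.16, adjusted p = 0.838 by edgeR).

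Plvap had the largest chronic difference of the members and the only one with an unadjusted p under 0.05. It was at 2755, 2689 and 2785 CPM in chronic RA F, M1 and M2 and at 2227, 2753, 1883, 1704 and 2108 CPM in chronic CS F, M1, M2, M3 and M4. In chronic CS, 4 libraries lay below all controls and M1 lay among them, for a log2 difference of -0.36 (SE 0.15, adjusted p = 0.440 by edgeR).

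Cavin1 was at 335, 353 and 366 CPM in chronic RA F, M1 and M2 and at 252, 263, 243, 363 and 335 CPM in chronic CS F, M1, M2, M3 and M4, with a log2 difference of -0.27 (SE 0.14, adjusted p = 0.491 by edgeR). Cavin3 ranged from 385 to 623 CPM in chronic CS and from 448 to 667 CPM in chronic RA. Cavin2 ranged from 1992 to 2822 CPM and from 1798 to 2476 CPM, and Ehd2 from 284 to 612 CPM and from 325 to 541 CPM. For these 3 genes the groups overlapped widely, with log2 differences of -0.23, 0.17 and 0.11 and adjusted p-values of 0.733, 0.687 and 0.923 (edgeR).

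The chronic CS libraries fell into a shallower and a deeper set by total counts, which were not tested against each other. Chronic CS F, M1 and M2 held 18821438 to 22885446 counts and chronic CS M3 and M4 45436986 and 47494020, against 32858543 to 36499108 in chronic RA. Ehd2 was at 284 to 342 CPM in the shallower set and at 607 and 612 CPM in the deeper one, Cav1 at 805 to 1131 and 1377 to 1398 CPM, Cavin1 at 243 to 263 and 335 to 363 CPM, and Cavin3 at 481 to 623 and 385 to 386 CPM. Cav2 was at 384 to 592 and 652 to 675 CPM, and Cavin2 at 1992 to 2534 and 2688 to 2822 CPM. Without overlap, 5 members were higher and 1 was lower in the deeper set, beside 16.1% of all genes higher and 10.5% lower, and Plvap overlapped (1883 to 2753 and 1704 to 2108 CPM). Against the same 3 chronic RA libraries, the log2 difference of Cav1 was -0.18 with the shallower set and 0.35 with the deeper set, that of Ehd2 -0.36 and 0.62, that of Cav2 -0.06 and 0.35, and that of Cavin1 -0.46 and -0.01. Plvap was lower with either set, with log2 differences of -0.25 and -0.53. None passed the adjusted limit with either set (smallest adjusted p 0.127, Cavin1 with the shallower set, edgeR). Summed blood endothelial markers were at 993 to 1887 CPM in the shallower and 1131 to 1404 CPM in the deeper set, and at 859 to 875 CPM in chronic RA. The lymphatic sum was 14901 and 15137 CPM in chronic CS M1 and M2, the libraries with the lowest Cav1 and Cav2, against 20466 to 21220 CPM in F, M3 and M4 and 19934 to 22931 CPM in chronic RA. Alveolar type 1 markers were at 105 to 372 CPM over chronic CS and at 35.3 to 53.4 CPM in chronic RA. Type 2 epithelial markers were at 1103 to 4728 CPM over chronic CS, highest in M3, which had the lowest Plvap, and at 452 to 678 CPM in chronic RA, and mesenchymal markers at 239 to 389 and 123 to 153 CPM. The part of depth and of these markers was not tested.

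Chronic RA against acute RA compares control mice of both time points. Acute RA libraries were pools of 2 to 5 mice with 51868956 and 56998590 counts. Chronic RA libraries were not pooled and had 32858543 to 36499108 counts, so time, pooling and depth cannot be told apart. No member passed the adjusted limit, and neither did any gene of all tested in edgeR (0% higher and 0% lower), while DESeq2 called 253 genes. Ehd2 was at 541, 325 and 325 CPM in chronic RA F, M1 and M2, below the 618 and 848 CPM of acute RA F and M, with a log2 difference of -0.88 (SE 0.37, adjusted p = 0.700 by edgeR), where 2.50% of all genes were lower at an unadjusted p under 0.05. Over the alternatives this difference ranged from -1.18 to -0.37. Cav1 (1087 to 1095 CPM against 968 and 982 CPM) and Cavin1 (335 to 366 CPM against 262 and 289 CPM) were higher without overlap, with log2 differences of 0.16 (SE 0.21) and 0.35 (SE 0.17). Groups did not overlap for 17.7% of genes higher and 17.0% lower. The other 4 members overlapped between the controls. Marker sums differed too, with alveolar type 1 at 35.3 to 53.4 CPM in chronic RA and 99.6 to 106 CPM in acute RA, and type 2 at 452 to 678 and 835 to 1200 CPM. The lymphatic sum was at 19934 to 22931 CPM in chronic RA and 15254 to 17066 CPM in acute RA, while the blood endothelial sum overlapped. The part of these markers was not tested.

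The difference between the acute and the chronic effect was tested as its own contrast, in which the time points also differ in pooling. The difference was largest for Cav1 at 1.03 on the log2 scale (SE 0.28, adjusted p = 0.153 by edgeR), followed by Cavin3 at -0.79 (SE 0.37, adjusted p = 0.440 by edgeR) and Cavin1 at 0.77 (SE 0.23, adjusted p = 0.192 by edgeR). With 1 library left out, Cav1 ranged from 0.87 to 1.12 and Cavin3 from -1.31 to -0.40, so this order was not fixed. No member passed the adjusted limit, which 0.401% of genes passed in the higher and 0.0513% in the lower direction. Cav1 and Cavin1 were 2 of 7 members higher at an unadjusted p under 0.05, beside 8.17% of all genes. With the shallower chronic CS set alone both passed, with adjusted p-values of 0.0453 for Cav1 and 0.0431 for Cavin1 (edgeR). The share of all genes called with that set is not given here, so these calls cannot be set against it. With DESeq2 on all libraries, which called 920 genes in this contrast, the adjusted p-values were 0.0179 and 0.0391. With the deeper set alone the differences were 0.73 (adjusted p = 0.0561) for Cav1 and 0.51 (adjusted p = 0.142) for Cavin1 (edgeR), and 18 of 20 alternatives left Cav1 short of the limit, with adjusted p-values up to 0.480.

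**Figure D5:**
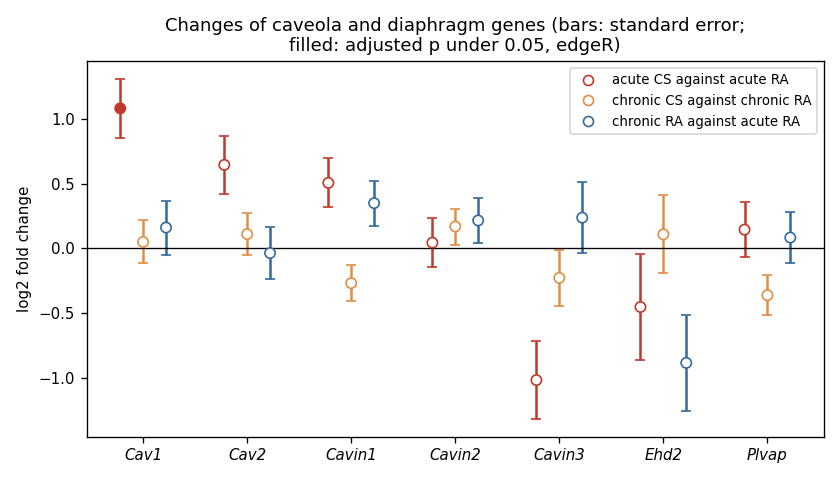
Log2 fold changes of the 7 genes with standard errors in 3 comparisons, from the edgeR fit on all 12 libraries, with filled points for an adjusted p under 0.05. Cav1 in acute CS is the 1 filled point, at 1.08, and Cavin3 in acute CS lies lowest, at -1.02.

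Other genes of the caveolar pathway were read from lists of accessory proteins, of receptors and enzymes found in caveolae or in transcytosis, of clathrin coat components and of flotillins. Of the accessory genes, 8 of 10 were tested (Cav3 and Cavin4, known from muscle, did not pass the filter), and 1 was called by edgeR (2 by DESeq2), with 6 higher and 2 lower in acute CS and a median log2 difference of 0.40. Over all 21440 genes the median was 0.04, and 2.75% were called higher and 0.723% lower by edgeR, while DESeq2 called 1961 genes in either direction. The gene called by edgeR was Ehd4, a relative of Ehd2 in endocytic traffic, at 248 and 220 CPM in acute RA F and M and 1058 and 514 CPM in acute CS F and M (log2 fold change 1.75, SE 0.28, adjusted p = 0.0087 by edgeR).

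Of the 10 caveolar resident and transcytosis genes, 7 were higher and 3 lower in acute CS, with a median log2 difference of 1.21 (also with Mfsd2a, which had no counts in acute RA, at the lower bound of its change), and 4 were called higher by edgeR and by DESeq2, beside the same shares of all genes. Nos3, the endothelial nitric oxide synthase that Cav1 binds and holds inactive, was at 17.9 and 19.1 CPM in acute RA F and M and at 44.1 and 63.7 CPM in acute CS F and M (log2 fold change 1.54, SE 0.23, adjusted p = 0.0075 by edgeR). Scarb1, the scavenger receptor for high-density lipoprotein, rose by 1.93 on the log2 scale (SE 0.27, adjusted p = 0.0060 by edgeR), and Acvrl1, a receptor for bone morphogenetic proteins, by 2.0 (SE 0.30, adjusted p = 0.0067 by edgeR). Cd36, the fatty acid transporter, was at 248 and 251 CPM in acute RA F and M and at 2071 and 956 CPM in acute CS F and M (log2 fold change 2.60, SE 0.43, adjusted p = 0.0091 by edgeR). Scarb1, Acvrl1, Cd36 and Ehd4 were each higher in acute CS F than in acute CS M. So were the summed markers of blood endothelium (7122 and 5150 CPM), leukocytes (2275 and 1627 CPM), and alveolar type 1 (820 and 85.9 CPM) and type 2 epithelium (6244 and 314 CPM). Nos3 and the lymphatic, mesenchymal and macrophage sums were higher in acute CS M, and the part of these markers was not tested. Of these calls and that of Dab2, a clathrin adaptor described next, all ended without acute RA F (adjusted p 0.0559 to 0.0985, edgeR) or acute RA M (0.0812 to 0.112), and those of Cd36 (0.0601) and Dab2 (0.0607) also without acute CS F. Without that library the log2 fold change was 1.94 for Cd36 and 1.14 for Ehd4. All 6 calls also ended when only the acute groups were fitted (adjusted p 0.0832 to 0.122, edgeR) and with a replicate block (0.0526 to 0.0735).

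In chronic CS no gene of these lists passed the adjusted limit in edgeR, and the median log2 differences were -0.02 for the accessory and 0.13 for the resident genes, beside 0.01 over all genes. Nos3 was at 12.5 to 14.6 CPM in chronic RA and at 19.9 to 27.2 CPM in chronic CS without overlap (log2 difference 0.84, SE 0.17, adjusted p = 0.211 by edgeR), and DESeq2 called it with an adjusted p of 0.000172. Aqp1 of the resident list was lower without overlap, at means of 7233 CPM in chronic RA and 5103 CPM in chronic CS (log2 difference -0.50, adjusted p = 0.333 by edgeR). Summed blood endothelial markers were at 859 to 875 CPM in chronic RA and 993 to 1887 CPM in chronic CS, and their part was not tested.

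Clathrin coats serve the other main route of endocytosis. Of 12 clathrin coat genes, 4 were higher and 8 lower in acute CS, with a median log2 difference of -0.12, beside 0.04 and 46.7% of genes lower over all genes tested. DESeq2 called 3 of them and edgeR 1, beside 0.723% of all genes called lower by edgeR. Dab2, an adaptor for cargo receptors, fell from 614 and 587 CPM in acute RA F and M to 324 and 369 CPM in acute CS F and M (log2 fold change -0.79, SE 0.12, adjusted p = 0.0080 by edgeR). In chronic CS 11 of the 12 were lower, with a median of -0.16 and none called by edgeR, beside 48.5% of all genes lower and a median of 0.01. Flot1 and Flot2, which form membrane domains without caveolins, had log2 differences of -0.04 and -0.15 in acute CS and -0.30 and -0.29 in chronic CS, and neither was called in either comparison.

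The genes whose log2 CPM followed each member most closely over the 12 libraries were ranked by Pearson r among 12422 genes, the 7 members left out, as a description. Of the members, Cav1 and Cav2 followed each other with an r of 0.954. The libraries share the differences between groups and in cell markers given above. For Cav1 the other genes were Rassf5 (r = 0.959), Adgrl4 (0.956) and Tm4sf1 (0.950), and for Cav2 Ipmk (0.947), Lsr (0.944) and Elf1 (0.941). Those of Cavin1 were Prkaca (0.949), Cpsf3 (0.942) and Gtpbp1 (0.942), and those of Cavin3 were Kcnj8 (0.959), D5Ertd615e (0.953) and Cacna2d3 (0.948). Cavin2 was followed most closely by Zfp395 (0.903), Il33 (0.892) and Fundc1 (0.865), Plvap by Crlf2 (0.931), Tor2a (0.915) and Nfkbib (0.887), and Ehd2 by Gm12751 (0.907), Blvrb (0.880) and Nrros (0.840). No gene was listed for 2 members, and with Spearman's rho 2 of these 21 genes stayed among the first 3 of their member.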

How the data were processed

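Sorted lung LECs of Prox1-EGFP mice gave 12 RNA-seq libraries, made with a SMART-Seq v4 low-input kit. The deposited values are whole-number gene counts (Ensembl identifiers, not normalized), for which the authors checked reads with FastQC 0.11.9, trimmed them with Skewer, filtered with Minion and aligned to GRCm38 in STAR, using its gene count mode. Which annotation release and strand setting were used is not given in the sources used here. Groups were taken from the labels, and the length of exposure and the pooling of mice from the study's methods. Nothing in the labels says that libraries of a group came from separate cohorts, so p-values measure the spread between these libraries.

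Symbols, positions and exon lengths came from GENCODE M21, which lacked 147 of 52636 identifiers (at most 0.011% of a library's counts). Counts were analysed with edgeR 4.0.16 and limma 3.58.1 in R 4.3.3, with DESeq2 1.42.0 as an alternative, and with Python 3.11.15, pandas 2.3.3 and matplotlib 3.10.9. After filterByExpr, 21440 genes remained. A single model of the 4 groups was fitted to the 12 libraries (TMM normalization, quasi-likelihood F-test), and p-values were adjusted by Benjamini and Hochberg over all genes tested, with a limit of 0.05. The SE given with an edgeR value was derived from its test, as the absolute log2 fold change over the square root of the F statistic. The 4 contrasts share libraries. For log2 CPM a prior count of 2 was added, and FPKM used the union of a gene's exons. A floor of 3 counts corresponds to 0.0526 to 0.159 CPM and covers counting error only. The fit was tested on simulated data.

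Named are the 7 members in every comparison, every gene of a pathway list past the adjusted limit in the acute comparison or else the 2 with the smallest p, and for each member the 3 genes with the highest Pearson r among genes other than the members whose log2 CPM averaged 1 or more. Nos3, a gene of this rule, and Aqp1, which is not, are also given for the chronic comparison, chosen after their values were seen. Marker lists are given by summed CPM. The members and lists were chosen with earlier results of these data known. The alternatives were DESeq2, library size without TMM, no filter, sex as a covariate, a fit to the compared groups alone, a replicate block, robust estimation, each library left out, and chronic CS F, M1 and M2 or M3 and M4 alone. Cultured cells, tissue staining and human data of the study were not analysed here.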

Additional observations from a re-analysis of the deposited data

Results flagged for a closer look

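The acute effect of CS on Scarb1 exceeded its chronic effect by 1.92 on the log2 scale, and the test of this difference itself passed the limit (SE 0.33, adjusted p = 0.0406, edgeR quasi-likelihood test), with the 2 acute CS libraries at 266 and 159 CPM against 52.0 to 87.0 CPM in the other 10. By edgeR no other gene of the caveolar lists passed. Among the members and named genes, DESeq2 also called this difference higher for Cav1 (adjusted p = 0.0179), Cavin1 (0.0391), Ehd4 (0.0036), Acvrl1 (0.000521) and Cd36 (0.00119). DESeq2 called that of Dab2 in the other direction (log2 difference -0.81, adjusted p = 2.33e-06). For Scarb1, without 1 library its adjusted p (edgeR) stayed under 0.05 when acute CS M (0.0122) or chronic CS M2 (0.0240) was left out, and was 0.0520 to 0.232 without any other. The call also ended with library size alone (0.0600), sex as a covariate (0.0578), the replicate block (0.202) and either set of chronic CS libraries alone (0.0719 for F, M1 and M2, 0.0561 for M3 and M4).

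Cd36 in chronic CS M2 was at 455 CPM, far from the other 4 chronic CS libraries (232 to 283 CPM), with a gap of 0.773 of the group's range. The same library had the highest sums of blood endothelial (1887 CPM), alveolar type 1 (372 CPM) and mesenchymal markers (389 CPM) of the chronic libraries. The type 2, leukocyte and macrophage sums were highest in chronic CS M3. The part of these markers in the value was not tested. Among 15 results checked in this group it was the 1 that stood apart, where chance alone gives about 1 in 20.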

How the results depend on the processing

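The acute log2 change of Cav1 stayed positive in all 11 alternatives (1.0 to 1.16), and 5 of them ended its call. With DESeq2, 1961 genes were called in the acute, 524 in the chronic, 253 in the room air and 920 in the acute minus chronic contrast, with 2 members higher and 1 lower in the acute and 2 higher in the last. Without the filter, 10, 6 and 191 genes were called in the latter 3, and with sex as a covariate 21 in the last. With only the groups compared, 139 genes and 0 members were called in the acute comparison (Cav1 adjusted p = 0.0782, edgeR) and 42 genes between controls. With library size alone, Plvap was at -0.021 between controls. With chronic CS F, M1 and M2 only, 1 gene was called, Cav1, Cav2 and Ehd2 were at -0.18, -0.060 and -0.36, and 2 members were called in the contrast of effects (share of all genes not given here). With M3 and M4 only, 16 genes were called. The cause of these differences was not tested.

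With a replicate block of libraries of the same sex and number, 73 genes and 0 members were called in the acute comparison (Cav1 at 1.08, adjusted p = 0.0534, edgeR) and 0 genes in the contrast of effects. Under the block, Cav1, Cav2 and Ehd2 were at -0.21, -0.10 and -0.33 in the chronic comparison, Cav2 at 0.0076 between controls and Cavin2 at 0.013 in the contrast of effects. Libraries with the same label deviated together little (r = 0.069 in the acute, -0.042 to 0.034 in the chronic groups), so that they share a sex, and in the chronic groups a number, and were not taken as paired.

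With each library left out in turn, the genes called ranged from 3 to 858 in the acute, 0 to 4 in the chronic and 0 to 263 in the contrast of effects, and members called in the acute comparison from 0 to 1 higher and 0 to 1 lower. Among values that changed sign, Plvap ranged from -0.092 to 0.40, Cavin2 from -0.035 to 0.092, Flot1 from -0.32 to 0.19 and Flot2 from -0.35 to 0.033 in the acute comparison. Cav1 ranged from -0.039 to 0.17 and Ehd2 from -0.056 to 0.41 in the chronic comparison, and Cav2 from -0.11 to 0.019 and Plvap from -0.15 to 0.35 between controls. In the likeness ranking, 2 genes stayed with Spearman's rho. Each member had at least 4792 counts in a library, which bears on counting error only.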
